A study of Homo sapiens with 4 samples.

Results

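A 1820 kb block of chromosome 2q21, chr2:132690001-134510000 in GRCh37 (hg19), was followed for methylation of cytosines in CpG dinucleotides (mCG) in HEK293T cells with and without *ZNF274*. The block was chosen by its mCG level, which was higher in *ZNF274* knockout cells than in wild-type cells, and its members are the CpGs between these bounds that were read in at least 1 library. There were 14590 of them among 27710999 CpGs on the autosomes and X, and 14544 to 14573 of them were read in each library. The difference in mCG between genotypes chose the block, so its values, and the calls of a fit over the whole genome, are given here as a description and support nothing. Read depth did not choose it and was tested.

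HEK293T is a line derived from human embryonic kidney. The study compared wild-type cells (WT) with cells in which the gene had been removed (ZNF274KO), with 2 libraries of enzymatic methyl sequencing (EM-seq) per genotype. The deletion was made by CRISPR-Cas9 with guide RNAs on both sides of *ZNF274*, followed by puromycin selection and sorting of single cells. The WT libraries carry no such deletion, and which clone each library came from is not stated in the sources used here, so the spread between libraries may be technical or clonal. Over the 501 CpGs of *ZNF274* itself, the WT libraries had 5158 and 4274 reads and the ZNF274KO libraries 0 and 14, as the labels state.

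ZNF274 belongs to the KRAB zinc finger proteins (KZFPs), which bind DNA through C2H2 fingers and recruit KAP1 and the machinery that writes the repressive histone mark H3K9me3. It is known for binding the ends of other KZFP genes, most clusters of which lie on chromosome 19. The study also found most of its binding sites in introns or between genes. Binding of ZNF274 in the block was not examined here. Long stretches of the genome in cultured cells, called partially methylated domains, are gene-poor and carry intermediate mCG levels, with the lowest levels at isolated CpGs flanked by A or T. CpG islands are short CpG-rich stretches that usually stay unmethylated at active or poised promoters. Band 2q21 also holds the remains of an ancestral centromere from the fusion of a pair of ape chromosomes, and sequence there has near copies on other chromosomes.

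The block held no KZFP gene. Among 365 KZFP genes found in the annotation by their translated fingers and KRAB domain, 4 lay on chromosome 2, and the nearest, *ZNF892*, was 36764 kb away. The nearest gene with at least 3 C2H2 fingers of any kind was *ZEB2*, at a distance of 10612 kb. The block did hold a zinc finger pseudogene, *ZNF285CP*, named after the KZFP gene *ZNF285* of chromosome 19, and 4 pieces of 1 kb around it matched that gene's region at 95.2% to 95.6% identity. The block is therefore far from KZFP genes but not free of zinc finger sequence. Of the 38 annotated genes of any kind that overlapped it, 5 were protein-coding, 2 were microRNAs, 14 were long noncoding RNAs and 10 were pseudogenes. It was poorer in CpGs than its surroundings, with 8.02 CpGs per kb against 13.6 in the 2 Mb before it and 9.24 in the 2 Mb after it, and it held 11 CpG islands against 59 and 8.

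Stretches of the block that behaved differently are shown as sequence from GRCh37, in lower case with each CG in capitals. All but the *GPR39* stretch were picked within their island or tile by CpG spacing, so the contrast in spacing is not a result. The first pair is rich in CpGs and was nearly unmethylated in every library. The stretch of the *LYPD1* island, chr2:133426651-133426850 on the minus strand, lies in an intron and holds 24 CpGs. The stretch directly upstream of the start of *GPR39*, chr2:133174178-133174377 on the plus strand, lies in no annotated exon and holds 15 CpGs.
LYPD1 island: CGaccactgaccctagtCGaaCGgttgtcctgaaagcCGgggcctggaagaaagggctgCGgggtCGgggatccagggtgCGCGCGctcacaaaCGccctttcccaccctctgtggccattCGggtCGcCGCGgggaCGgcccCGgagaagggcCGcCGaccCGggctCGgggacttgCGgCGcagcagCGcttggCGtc
GPR39 upstream: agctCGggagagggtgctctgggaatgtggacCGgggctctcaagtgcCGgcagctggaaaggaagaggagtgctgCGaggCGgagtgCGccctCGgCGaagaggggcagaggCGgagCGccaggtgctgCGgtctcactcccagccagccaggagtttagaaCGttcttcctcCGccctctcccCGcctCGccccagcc
The levels of the *LYPD1* stretch were 3.38%, 6.85%, 4.80% and 4.82% in WT 1, WT 2, ZNF274KO 1 and ZNF274KO 2, the order used for all lists of 4 values here. Those of the *GPR39* stretch were 1.76%, 1.59%, 0.769% and 1.27%.

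The second pair comes from the tiles of 5 kb with the largest and the third-largest difference in the block. Within each tile the stretch was picked for CpGs with no other CpG within 35 bases. That each CpG of the pair is isolated follows from this choice and does not describe the tiles. The first, chr2:132874451-132874750 on the plus strand, holds 4 CpGs in tile chr2:132870001-132875000. The second, chr2:133202441-133202740 on the plus strand, holds 3 CpGs in an intron of *GPR39*. Neither overlaps an annotated exon.
Tile 132870001: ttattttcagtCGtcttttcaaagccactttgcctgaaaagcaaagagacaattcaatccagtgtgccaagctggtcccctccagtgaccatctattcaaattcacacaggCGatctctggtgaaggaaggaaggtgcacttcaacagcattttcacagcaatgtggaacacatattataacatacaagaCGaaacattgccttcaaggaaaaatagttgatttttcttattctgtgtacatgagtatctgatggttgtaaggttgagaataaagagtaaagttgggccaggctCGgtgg
Tile 133200001: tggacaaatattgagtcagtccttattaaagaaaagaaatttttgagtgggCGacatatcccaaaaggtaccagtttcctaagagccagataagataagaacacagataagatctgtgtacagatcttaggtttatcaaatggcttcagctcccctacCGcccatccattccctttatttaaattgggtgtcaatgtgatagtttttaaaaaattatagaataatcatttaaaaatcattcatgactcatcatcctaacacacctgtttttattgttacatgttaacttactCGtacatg
Over the first stretch the levels were 5.36% (95% Wilson interval 1.84% to 14.6%), 2.86% (0.506% to 14.5%), 60% (44.6% to 73.7%) and 40.5% (26.3% to 56.5%), on 56, 35, 40 and 37 reads. Over the second they were 19.6% (10.7% to 33.2%), 25% (13.8% to 41.1%), 70.4% (51.5% to 84.1%) and 45.8% (27.9% to 64.9%), on 46, 36, 27 and 24 reads. Both ZNF274KO libraries exceeded both WT libraries in each stretch, although the interval of ZNF274KO 2 overlapped those of both WT libraries in the second. The intervals cover counting error only, and reads that cover more than 1 CpG enter the count at every CpG they cover.

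Over all its CpGs, the mCG level of the block, the methylated share of the reads at its CpGs, was 33.7% and 32.3% in the WT libraries, against 51.1% (ZNF274KO 1) and 44.2% (ZNF274KO 2). The WT mean was 33.0% ± 1.03 and the ZNF274KO mean 47.6% ± 4.89 (SD, n = 2), which lie 14.7 percentage points apart. The groups did not overlap, and ZNF274KO 1 lay further from WT (18.1 points) than ZNF274KO 2 (11.2 points). These levels rest on 134491 to 176440 reads per library, counted at every CpG they cover, with a median of 9 to 12 reads per CpG.

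The surrounding sequence differed from the block in both genotypes. The 2 Mb before the block, with 27264 CpGs, had levels of 68.9%, 69.8%, 70.9% and 68.5%. The 2 Mb after it, with 18482 CpGs, had 70.9%, 70.4%, 72.2% and 69.9%. In both flanks the libraries of the genotypes overlapped, and the means differed by 0.347 and 0.396 points. Each flank includes a stretch next to the block in which the difference continued, given further on. In WT the block was thus a trough at less than the level of either flank, and in ZNF274KO it was a shallower one. The genome-wide levels were 59.3%, 60.4%, 60.2% and 58.4%, so ZNF274KO 2 was 1.83 points below ZNF274KO 1 over the genome and 6.92 points below it in the block.

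**Figure D1:**
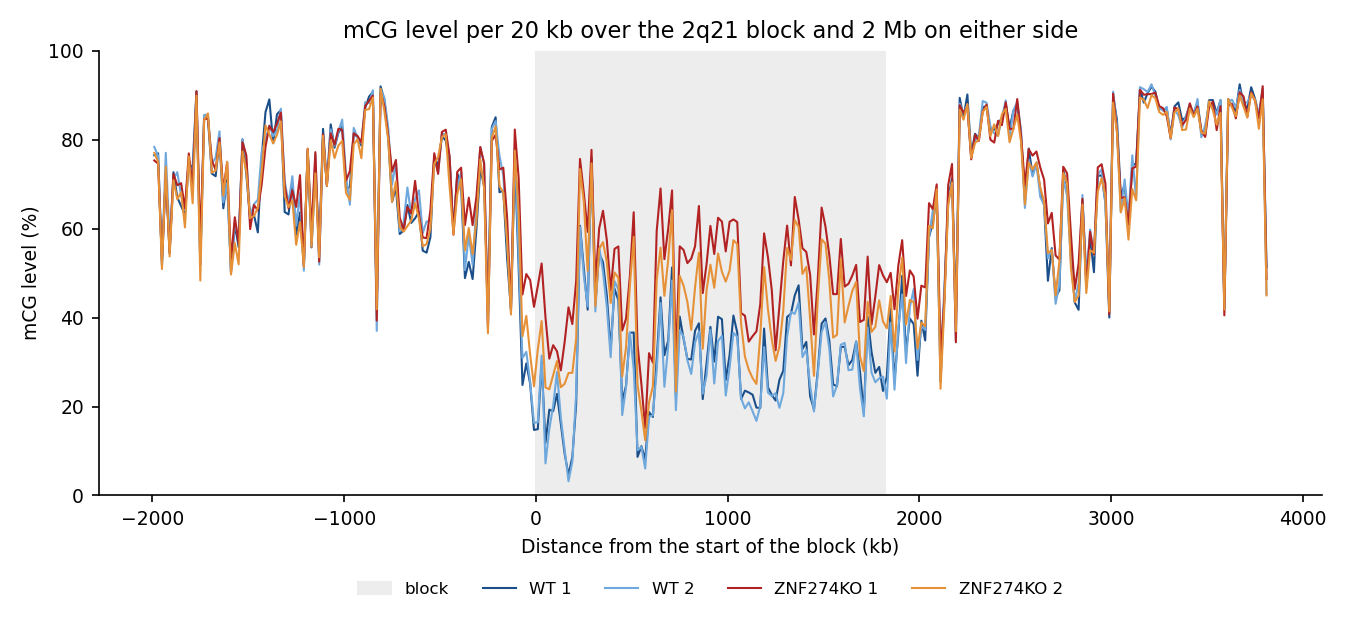
mCG level (%) in bins of 20 kb against distance from the start of the block in kb, 1 line per library, with the block shaded and 2 Mb shown on either side; bins with fewer than 20 CpGs are left out. Both ZNF274KO lines run above both WT lines over most of the block and a short way past its ends, and the 4 lines run close together over most of the remaining flanks.

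In each of the 18 full bins of 100 kb in the block both ZNF274KO libraries exceeded both WT libraries, with differences of 6.64 to 21.2 points, where 8.86% of such bins did over the genome, and ZNF274KO 1 was the higher of the ZNF274KO libraries in all 18. The largest bin difference lay 900 kb into the block, inside *NCKAP5*, at 35.6%, 31.8%, 59.2% and 50.6%. The smallest lay 300 kb into it, at 49.3%, 48.2%, 58.0% and 52.8%. At a finer scale it was not unbroken, since 3 neighbouring bins of 20 kb in *ANKRD30BL* and at its start, from 280 kb into the block, had overlapping genotypes and differences of 0.297, 2.79 and 2.52 points. The longest unbroken runs of tiles of 5 kb with both ZNF274KO libraries above both WT libraries were 58 tiles (290 kb, chr2:133495001-133785000) and 56 tiles (280 kb, chr2:134025001-134305000), both within *NCKAP5*.

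Of the 364 tiles in the block, all of which passed the minimum of 20 reads in every library and 5 CpGs, 332 had both ZNF274KO libraries above both WT libraries, where 13.5% of all tested tiles of the genome did, and 2 had both below, where 22.3% did. The quasi-likelihood test of edgeR over all 563523 tiles called 132 tiles of the block higher in ZNF274KO at an adjusted p under 0.05, against 0.473% of tiles genome-wide, and 0 lower, against 0.0131%. At an unadjusted p under 0.05 it gave 311 tiles of the block higher and 0 lower, where 6.52% of all tiles passed in either direction. All of these counts come from the contrast that chose the block, so nothing is read from them. When 1 library is left out, its genotype keeps a single library and the spread comes from the other genotype alone. The number called in the block was 27 without ZNF274KO 1, where 0.336% of all tiles were called in either direction. It was 190 without WT 1 (0.890% of all tiles), 180 without WT 2 (1.15%) and 152 without ZNF274KO 2 (0.672%). With limma on log2 ratios it was 8 (0.152%).

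The tiles differed widely among themselves. The median tile level was 26.9% in WT (quartiles 18.3% and 38.2%) and 46.3% in ZNF274KO (33.7% and 56.7%). The median difference was 17.1 points (10.8 and 22.1), from -3.63 to 43.7. It exceeded 20 points in 129 tiles, was under 5 points in 38 and was below 0 in 8. Tiles with a mean level under 20% numbered 109 in WT and 26 in ZNF274KO, while those over 60% numbered 19 and 70. ZNF274KO 1 lay above ZNF274KO 2 in 335 of the 364 tiles, so the order of the ZNF274KO libraries was nearly the same along the block as in its total. The same order held in 286 of 396 flank tiles before the block and 278 of 400 after it, so it was not particular to the block. Across the 364 tiles, which share libraries and are not independent, Pearson's r was 0.963 between the WT libraries, 0.945 between the ZNF274KO libraries and 0.866 between the genotype means.

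The size of the difference followed the WT level loosely, with a median of 13.8 points in the 33 tiles under 10% in WT, 19.4 points in the 102 tiles from 20% to 30%, and 6.73 points in the 19 tiles at 60% or more. Part of any such relation is fixed by the scale, since a high level leaves little room for a higher one and both axes share the WT values. Tiles with more CpGs had smaller differences (r = -0.341 across the 364 tiles, as a description).

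**Figure D2:**
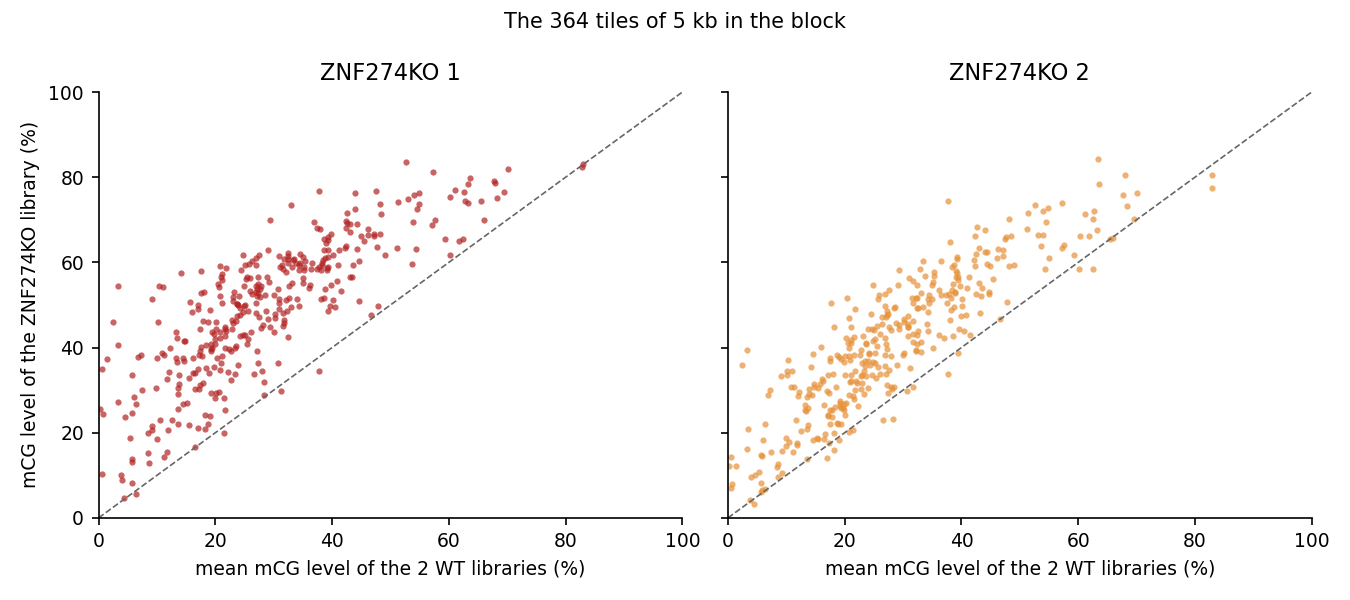
mCG level (%) of each ZNF274KO library against the mean mCG level (%) of the 2 WT libraries for the 364 tiles of 5 kb in the block; the dashed line marks equal levels. Most points lie above the line (359 for ZNF274KO 1 and 347 for ZNF274KO 2), and those of ZNF274KO 1 lie higher.

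The 3 tiles with the largest difference began from low or intermediate WT levels. The largest, at chr2:132870001-132875000 between protein-coding genes, held 28 CpGs at 4.09%, 2.43%, 54.5% and 39.4%, a difference of 43.7 points. The next, at chr2:132850001-132855000, held 37 CpGs at 2.44%, 2.34%, 46.0% and 35.9%, a difference of 38.6 points. Both were almost free of methylation in WT. The third-largest, at chr2:133200001-133205000 in an intron of *GPR39*, held 43 CpGs at 38.4%, 37.01%, 76.7% and 74.5%, a difference of 37.8 points, with little distance between the ZNF274KO libraries.

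The 3 tiles with the smallest difference were of several kinds. The tile at chr2:134020001-134025000 in *NCKAP5*, which holds a CpG island, had 123 CpGs at 37.9%, 37.5%, 34.4% and 33.7%, a difference of -3.63 points. The tile at chr2:132980001-132985000 had 46 CpGs at 81.8%, 83.9%, 82.3% and 77.5%, a difference of -2.94 points, with overlapping genotypes and a level that was already high. The tile at chr2:133005001-133010000 had 37 CpGs at 21.95%, 20.9%, 19.9% and 20.7%, a difference of -1.15 points. The last pair lies in *ANKRD30BL*.

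The bounds of the block did not coincide with the ends of the difference. The 3 tiles just inside the first bound differed by 22.1, 27.4 and 29.9 points, and the 3 just outside it by 16.2, 18.2 and 20.5 points, from the nearest outward. At the second bound, the 3 just inside differed by 24.1, 15.7 and 16.7 points and the 3 just outside by 18.5, 23.3 and 18.7 points, again from the nearest to the bound. In all 12 of these tiles both ZNF274KO libraries exceeded both WT libraries. The 100 kb before the block had levels of 32.8%, 35.3%, 55.3% and 43.0%, and the 210 kb after it had 36.1%, 36.2%, 48.1% and 41.5%, stretches chosen after their values were seen. Of the flank tiles, which include those stretches, 71 of 396 before and 82 of 400 after the block had both ZNF274KO libraries above both WT libraries. In 71 and 81 both lay below. Over the genome, 13.5% of tested tiles had both above and 22.3% both below. The median difference of the flank tiles was -0.0784 points before the block and -0.0313 points after it.

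The difference was smaller in a 230 kb stretch that began 210 kb into the block, which holds *ANKRD30BL* and *ZNF285CP* and was set apart after the values were seen. Its 2952 CpGs had levels of 50.3%, 49.99%, 60.3% and 55.3%, a difference of 7.62 points. The 1478 CpGs before it had 17.5%, 18.0%, 37.6% and 28.9%, a difference of 15.5 points. The 10160 CpGs of the 1380 kb after it, with *GPR39*, *LYPD1* and *NCKAP5*, had 30.5%, 28.5%, 49.9% and 42.6%, a difference of 16.7 points. In this middle stretch 113 of 230 pieces of 1 kb had a near copy elsewhere in the genome (at least 500 bases at 95% identity or more). The whole block, which includes this stretch, had 334 of 1820, a smaller share, although most pieces with a near copy lay outside the stretch. Of the 2000 pieces in each flank, 1150 before the block and 68 after it had a near copy. Of the 334 pieces of the block, 224 matched chromosome 18 and 218 chromosome 21. In the block the level of pieces with a near copy was 12.7 points higher in ZNF274KO and that of pieces without one 15.1 points higher. Whether reads in such pieces came from the copies was not tested.

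The level and the difference both varied with the class of CpG. The 942 CpGs in islands had 40.7%, 42.0%, 42.6% and 40.01%, with overlapping genotypes and means that differed by -0.0340 points. The 664 CpGs within 2 kb of an island were 5.75 points higher in ZNF274KO, and the 12984 CpGs further away were 16.1 points higher, at 32.4%, 30.6%, 51.2% and 43.9%. The 343 CpGs within 1 kb of the start of *ANKRD30BL*, *GPR39*, *LYPD1* or *NCKAP5* had 42.1%, 47.9%, 47.2% and 45.9%, with overlapping genotypes. The protein-coding entry *AC011755.1* was left out of this class, and its promoter is given further on. The mean over the island CpGs joins islands with differences in both directions, which are given singly further on.

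The level was lower at more isolated CpGs in both genotypes. The 2657 CpGs with 3 or more others within 35 bases had means of 55.2% in WT and 59.6% in ZNF274KO, a difference of 4.39 points, and the 1785 of them outside islands had 61.4% and 68.3%, a difference of 6.88 points. The 5448 CpGs with 1 or 2 others had means of 37.8% and 53.1%. The 6485 with none had 21.3% and 38.9%. Among CpGs with none, the level also varied with the bases on either side. Those with C or G on both sides (1071) had 39.96% and 55.3%, and those with A or T on both sides (2346) had 10.3% and 27.4%. The last class, the one known for low mCG in partially methylated domains, had 10.8%, 9.84%, 30.7% and 24.1% in the 4 libraries, a difference of 17.1 points. The same class in the flanks had 52.6%, 53.7%, 55.9% and 53.1%, with overlapping genotypes.

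**Figure D3:**
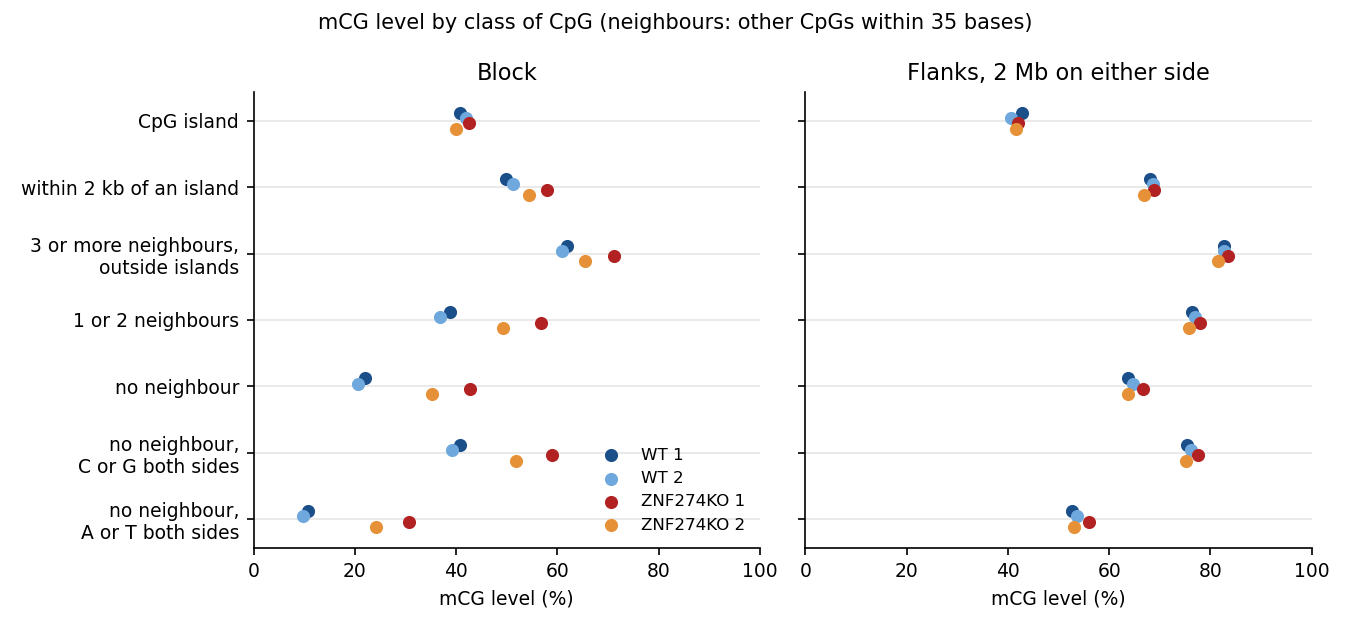
mCG level (%) by class of CpG in the block (left) and in the flanks (right), 1 point per library; neighbours are other CpGs within 35 bases. In the block the ZNF274KO points lie to the right of the WT points in each class shown but CpG islands, while in the flanks the points of the genotypes overlap in each class shown.

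The 11 islands of the block fell into a low and a high set. In WT, 5 islands (521 CpGs) had mean levels of 9.23% or less and 6 had 54.1% or more. In the low set the difference ranged from -3.48 to 0.216 points and 0 of 5 had both ZNF274KO libraries above both WT libraries and 3 had both below. In the high set it ranged from -1.78 to 10.7 points, with 4 of 6 above and 1 below. Such shares were not computed over all islands of the genome, and sets of 5 and 6 islands are small, so nothing is read from these counts. Among the 63 flank islands with values, 5 lay above and 15 below. Of the 20 flank islands with a mean WT level under 10%, 1 lay above and 4 below. Of the other 43, 4 lay above and 11 below. The low set includes the island of *LYPD1* (206 CpGs at 3.09%, 3.01%, 3.27% and 2.09%) and that of *GPR39* (57 CpGs at 4.60%, 6.19%, 1.32% and 2.51%). The high set includes the island at the starts of *ANKRD30BL* and *MIR663B* (198 CpGs at 79.99%, 80.1%, 79.8% and 76.8%), so this island was methylated in both genotypes.

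Each read comes from 1 DNA molecule, so the reads at a CpG sample the cells and alleles of a library. At a fixed depth of 5 reads drawn per library at each of the 12047 CpGs of the block with enough reads in all libraries (2543 were left out), 43.7% and 44.9% of CpGs had no methylated read in WT 1 and WT 2, against 19.5% and 26.4% in ZNF274KO 1 and ZNF274KO 2. CpGs with 5 methylated reads of 5 made up 12.3%, 11.4%, 19.5% and 16.1%. CpGs with a mixture made up 43.999%, 43.7%, 61.0% and 57.5%. Both partly and fully methylated CpGs were more frequent in the ZNF274KO libraries, and ZNF274KO 2 lay between WT and ZNF274KO 1 in each of these shares. In the flanks, the share with no methylated read was 14.3%, 13.6%, 11.6% and 13.2%, also lower in both ZNF274KO libraries. The share with a mixture there was 41.5%, 42.0%, 45.0% and 45.5%, also higher in both. The directions of these shares were thus not particular to the block. CpGs with 5 methylated reads of 5 made up 44.2%, 44.4%, 43.4% and 41.3% in the flanks, lower in both ZNF274KO libraries.

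**Figure D4:**
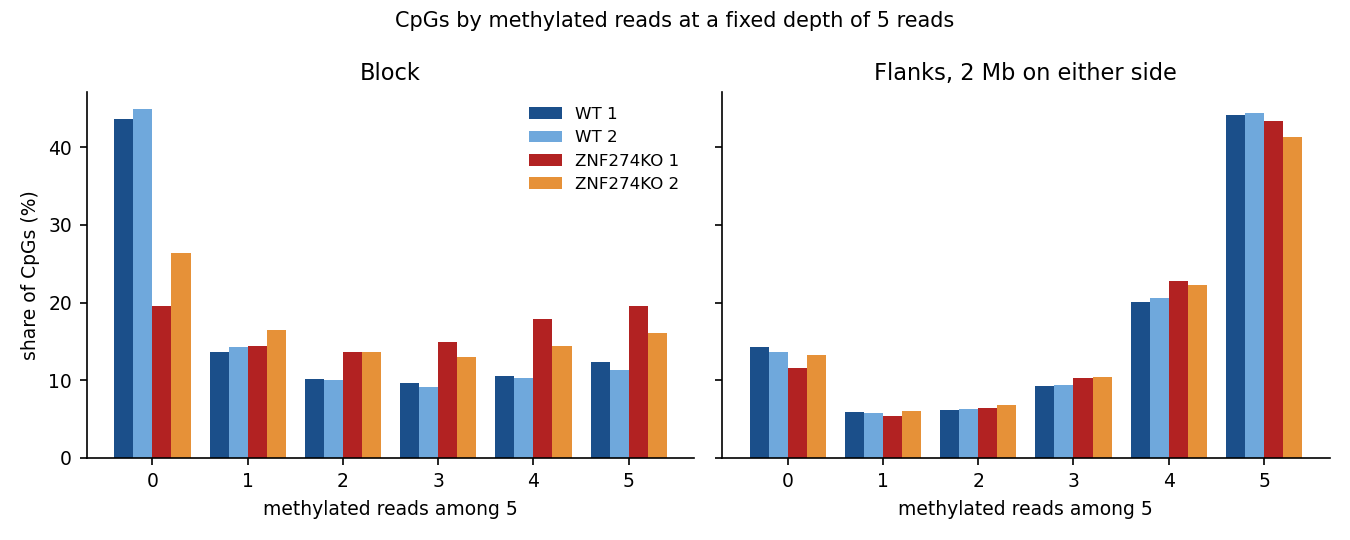
Share of CpGs (%) by the number of methylated reads among 5, in the block (left) and the flanks (right), 1 bar per library. In the block the WT bars are tallest at 0 methylated reads (43.7% and 44.9%), where the ZNF274KO bars stand at 19.5% and 26.4%.

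The genes were followed by body, from start to end, and by promoter, 1 kb on either side of the start. *NCKAP5*, which encodes a protein named for its binding to the adaptor Nck, covers 896674 bases of the block on the minus strand (chr2:133429361-134326034). Its 6293 CpGs had 31.6%, 29.7%, 52.3% and 44.9%, a difference of 18.0 points with genotypes apart. Its promoter, with 27 CpGs and no island, had 28.2%, 32.9%, 32.7% and 25.1%, and there the genotypes overlapped.

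*GPR39* encodes a zinc-sensing G protein-coupled receptor and lies on the plus strand (chr2:133174378-133404155). The 1783 CpGs of its body had 29.4%, 27.1%, 50.1% and 41.9%, a difference of 17.7 points. Its promoter of 108 CpGs, 52.8% of them in an island, had 27.1%, 29.9%, 30.3% and 31.2%, a difference of 2.23 points, which is close to the 2.76 points between the WT libraries. Its body and its promoter thus differed in how far the genotypes lay apart.

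*LYPD1*, which encodes a membrane-anchored protein of the Ly6 family that acts on nicotinic acetylcholine receptors, lies on the minus strand (chr2:133400859-133429152) and overlaps the end of *GPR39*. Its body of 497 CpGs had 32.0%, 29.6%, 41.1% and 36.1%, a difference of 7.82 points. Of these CpGs 49.3% lie in an island. Its promoter of 66 CpGs had 8.41%, 5.48%, 8% and 6.03% and showed no separation of the genotypes.

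*ANKRD30BL*, an ankyrin repeat gene copy on the minus strand (chr2:132905164-133015542), had 58.7%, 58.5%, 67.1% and 63.2% over the 1360 CpGs of its body, a difference of 6.57 points, and 74.6%, 76.7%, 77.8% and 74.5% over its promoter. *MIR663B*, a microRNA gene at its start (chr2:133014539-133014653), had 78.8%, 69.0%, 78.0% and 58.4% over 11 CpGs, with overlapping genotypes. Its promoter was at 81.4%, 80.3%, 79.8% and 77.0%, slightly lower in both ZNF274KO libraries. The microRNA entry *AC104405.1* has no CpG in its own span, and the 13 CpGs around its start had 13.3%, 13.6%, 36.6% and 25.5%. *AC011755.1*, a short entry annotated as protein-coding, had 38.3%, 26.2%, 53.9% and 50.4% over 15 CpGs, and its promoter of 40 CpGs had 70.4%, 55.5%, 76.3% and 69.9%, with overlapping genotypes.

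The pseudogene *ZNF285CP*, added to this list after its values were seen, had 25.9%, 25.1%, 37.8% and 33.8% over 48 CpGs (chr2:133066882-133076309), a difference of 10.4 points. The KZFP gene whose name it shares, *ZNF285*, had 25.6%, 25.3%, 54.7% and 47.2% over 161 CpGs on chromosome 19. The median depth over the pseudogene was 15.5 to 20 reads per CpG against 9 to 12 in the block. The raised depth was not particular to it, since the bin at chr2:133090001-133110000, past its end, had 15 to 18. Whether reads of *ZNF285* were placed over the pseudogene was not tested.

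**Figure D5:**
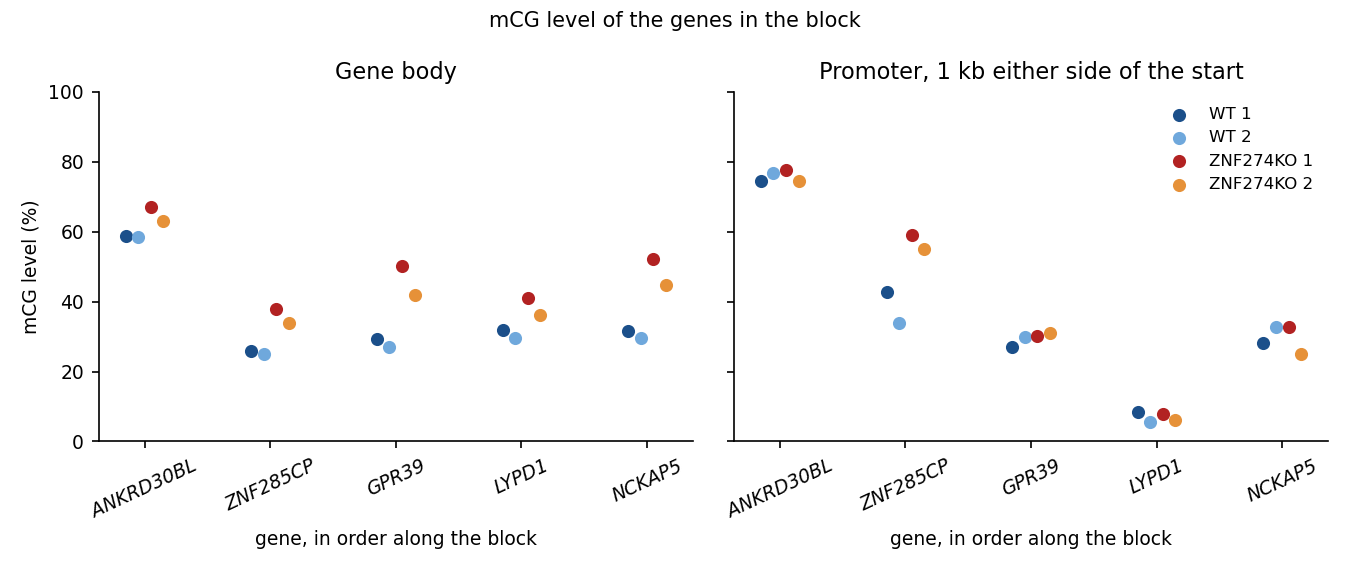
mCG level (%) of gene bodies (left) and promoters (right) of *ANKRD30BL*, *ZNF285CP*, *GPR39*, *LYPD1* and *NCKAP5*, in order along the block, 1 point per library. Both ZNF274KO points lie above both WT points in the 5 bodies shown, while at the promoters of *ANKRD30BL*, *LYPD1* and *NCKAP5* the points of the genotypes overlap.

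Read depth was compared between the genotypes over the same CpGs. The reads of the block made up 0.0626%, 0.0599%, 0.0558% and 0.0583% of those over autosomal CpGs. The ratio of ZNF274KO to WT was 0.932, and neither ZNF274KO library reached the lower WT library. The p was 0.333 by an exact permutation test, run two-sided, and cannot be smaller with 2 libraries against 2. All of chromosome 2 showed a like ratio (0.925), and so did the flanks (0.878 and 0.895). Relative to the rest of chromosome 2 the ratio of the block was 1.01 (p = 1, exact permutation test), and relative to its flanks 1.05 (p = 0.333, exact permutation test), so its direction depended on what it was set against. A difference in depth moved with the genotype over the whole chromosome, and its part in the mCG difference was not tested.

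No tile of the block was called for read depth by the quasi-likelihood test of edgeR over 564170 tiles (0 of 364), where 0.000532% of all tiles were called higher and 0.00461% lower. At an unadjusted p under 0.05 there were 33 tiles in the block, 1 higher and 32 lower, against 2.75% and 5.87% of all tiles, and DESeq2 also called 0 in the block, where it called 0.0296% of all tiles. At an unadjusted p under 0.05 DESeq2 gave 12 tiles of the block, where 4.48% of all tiles passed. The median log2 ratio of depth was -0.12 in the block (range -0.47 to 0.25), -0.18 in the flank before it and -0.16 in the flank after it. The tiles with the largest mCG differences had log2 depth ratios of 0.01, -0.28 and -0.12 (edgeR adjusted p = 0.992, 0.597 and 0.879). Only 2 of the 14590 CpGs had a summed depth over 5 times the median of the autosomes.

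To place the block among stretches of its own length, the autosomes and X were divided into 1563 windows of 1820 kb. Of these, 213 had a lower WT level and 4 a larger difference in mCG. The 4 lay on chromosome 19 (3 windows, differences of 34.9, 34.2 and 18.3 points) and chromosome 7 (28.7 points), and they held 15, 15, 28 and 2 KZFP genes in that order. The 103 windows with a WT level within 5 points of that of the block had a median difference of 0.238 points, from -2.97 to 34.9, and 55 of them had a difference above 0. This ranking uses the contrast that chose the block and is a description. The windows lie on a fixed grid, while the block was placed on its rise, which can favour its rank.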

How the data were processed

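Each EM-seq library was mapped by the authors with Msuite2 and hisat2 on hg19 with rDNA added, and they deposited raw counts of reads per CpG, strand and base call, 1 file per library. CpGs without reads are not in these files, and how poorly mapped or duplicated reads were filtered is not given in the sources used here, so shared or duplicated reads can enter the counts. From these counts, the mCG level was computed as methylated over methylated plus unmethylated reads, summed over a region. The sums over the CpGs of the autosomes and X were 241598512 to 295114493 per library. Here and in all read numbers above, a read is counted at every CpG it covers, so these sums exceed the number of reads sequenced.

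Reads were summed in tiles of 5 kb that held 5 CpGs or more and 20 reads or more in each library. Methylated and unmethylated counts of all tiles were fitted together in edgeR 4.0.16 (R 4.3.3) by the quasi-likelihood test, with 1 coefficient for each library and another for the log-odds of methylation in each genotype. Total reads per tile were fitted in edgeR with TMM, where a mean of 20 reads per library was needed. Both used Benjamini-Hochberg adjustment at 0.05. Both were also run on simulated data with a spread between libraries that was set in advance. That run does not show how the fits behave at the spread of the real libraries. Alternatives used DESeq2 1.42.0 and limma 3.58.1 (pseudocount 1). Groups and replicate numbers came from the library titles. With 2 libraries per group, the p-values of the fits set a difference against counting error and the spread between these libraries. That spread was estimated in part over all tiles. Spread among libraries other than these is not covered.

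Genes came from GENCODE on GRCh37, and KZFP genes were those with at least 3 C2H2 fingers plus a match to KRAB queries in pyhmmer 0.12.3 (E-value below 0.001). Islands were stretches of at least 500 bases with GC of 55% or more and an observed over expected CpG ratio of 0.65 or more. Near copies were found with minimap2 2.31. Sequences were read from GRCh37.

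The genes named are all protein-coding genes and microRNAs that overlap the block. The tiles named are the 3 with the largest and the 3 with the smallest difference among those with at least 20 CpGs, and the 3 on either side of each bound. The block, the gene lists and the tests were chosen with earlier results of these data known.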

Additional observations from a re-analysis of the deposited data

How the results depend on the processing

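The mCG difference of the block, 14.7 points, stayed between 11.2 and 18.1 points when each library was left out in turn, and between 14.6 and 16.6 points under the other alternatives run (a minimum of 3 reads per CpG in each library, either strand, unweighted means, centring on the genome, CpGs of very high depth left out). The highest of these, 16.6 points, came from leaving out the 230 kb stretch with *ANKRD30BL*, and leaving out pieces with a near copy gave 15.1, both chosen after seeing the data. Of 44 alternatives over the 4 results, 37 were scored as unchanged, 5 as moved and 2 as reversed. The mCG difference was scored against the pooled SD, the depth ratio by its direction only, and the tile counts by a factor of 1.5. With 2 libraries per genotype, leaving out 1 cannot move the mCG difference past the pooled SD. Those scores were therefore fixed in advance and show no stability. The ratio of read depth, 0.932, turned to 1.05 relative to the flanks and to 1.01 relative to the rest of chromosome 2, since those carried lower ratios themselves, and was 0.911 to 0.953 with each library left out. The 132 tiles called for mCG became 86 with tiles of 10 kb, where fewer tiles were tested and 0.504% of the genome's tiles were called against 0.486% with 5 kb, and 8 with limma, for which the cause was not tested. They became 27 to 190 with each library left out, the lowest without ZNF274KO 1. With the replicate number as a block the count was 202 (0.850% of all tiles), and with the crossed pairing, added after seeing the data because the deviations of same-numbered libraries correlated at -0.108 over all tiles, it was 243 (1.18% of all tiles). The numbers were not taken to pair the libraries. Calls for read depth stayed at 0 under every alternative run with all 4 libraries, the replicate block included. Fits with 1 library left out keep a single library in its genotype, so their spread comes from the other genotype alone. Counts from such fits are not read as stability. With 2 libraries per genotype and a median of 9 to 12 reads per CpG, single CpGs were not compared.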
